A study of Mus musculus with 36 samples.

Results

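The data described here are the transcriptomes of epididymal white adipose tissue (eWAT), the abdominal fat pad that lies along the epididymis of male mice, in 6 of the 36 samples of the series. The samples were chosen by tissue alone, as every library of the eWAT count table, and no measured value entered that choice. All 6 mice were male C57BL/6 wildtype offspring, of the substrain C57BL/6N by the study's methods, whose fathers had been fed a High Fat Diet for 2 weeks before conception, and the offspring themselves were kept on chow after weaning and never ate that diet. By the sample labels 3 of the mice were HFDt, offspring that were glucose tolerant in a glucose tolerance test, and 3 were HFDi, offspring that were intolerant. The columns of the count table carry library numbers (17, 18, 22, 25, 26 and 27) and name neither group, so the 6 libraries were treated as 1 group. Whatever separates HFDt from HFDi mice is part of the spread described below and cannot be told apart from other differences between the mice. Offspring of low-fat-diet fathers were not analysed here. The 6 liver and the 6 gastrocnemius libraries of such offspring, each in a count table of its own, served as the reference for what is particular to fat.

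White adipose tissue stores energy as triglyceride inside adipocytes, large cells with a single lipid droplet coated by perilipin. Adipocytes take up fatty acids released by lipoprotein lipase, make some of their own, release them again in fasting, and secrete hormones such as adiponectin and leptin. The fat pad also holds endothelial cells, fibroblasts, macrophages and other leukocytes, and its surface is covered by mesothelium. The epididymal pad borders the epididymis and the efferent ducts, which carry sperm from the testis and are lined by ciliated and absorptive epithelium. In bulk tissue, fewer cells of a type and less RNA per cell cannot be told apart.

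The sequencing read the 3′ end of polyadenylated RNA, so a gene's count of reads does not grow with the length of its transcript. Totals ranged from 1338149 counts in library 18 to 4055537 in library 27, and 16540 to 21512 genes had at least 1 count. Levels are given as CPM, each gene's count scaled to a common library size after TMM scaling, with 1 CPM being 1 count in 1000000 (the trimmed mean of M values, which sets the bulk of genes equal between libraries), and values for all libraries are listed in the order 17, 18, 22, 25, 26 and 27. A count of 0 allows a level of up to 3 counts, which is 0.771 CPM in library 27 and 2.33 CPM in library 18. Library 17 stood apart from the other 5 and carried 305 genes at 5 CPM or more that were under 1 CPM in each of the others. Many results that rest on it, though not all, are therefore given with and without it.

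The label of the tissue held in every library. Adipoq, the hormone adiponectin, was at 3897, 8130, 7986, 6223, 7642 and 7459 CPM, lowest in library 17. Liver libraries held at most 10.4 CPM and gastrocnemius libraries at most 59.1 CPM of Adipoq, so the tissues did not overlap. The log2 difference was 10.77 ± 0.92 (SE) against liver (adjusted p = 4.54e-10, edgeR quasi-likelihood test with Benjamini-Hochberg adjustment, n = 6 per tissue) and 7.19 ± 0.77 against gastrocnemius (adjusted p = 2.62e-08). Plin1, the perilipin that guards the lipid droplet, was at 513, 619, 934, 856, 948 and 1434 CPM. Fabp4, the fatty acid carrier of adipocytes, was at 8134, 7996, 12651, 14211, 14462 and 18775 CPM. Both were lowest in libraries 17 and 18 and highest in library 27. Plin1 was higher than in gastrocnemius by 6.35 on the log2 scale and Fabp4 by 4.01, with adjusted p of 3.24e-12 and 1.82e-08 in the same edgeR fit. Ucp1, the heat-producing protein of brown fat, had 0 counts in all 6 libraries.

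Against liver, 2720 of 10851 genes tested (25.1%) were higher in eWAT and 2064 (19.0%) were lower at an adjusted p under 0.05 and a log2 difference of at least 1, and against gastrocnemius 3592 (33.1%) were higher and 1978 (18.2%) lower. The tissues were deposited as separate tables, so tissue and any difference in how the tables were made cannot be told apart. Of the calls, 56.9% were higher in eWAT against liver and 64.5% against gastrocnemius. Scaling by library totals in place of TMM moved these shares to 83.7% and 87.9% and the median log2 difference over all genes from 0.07 to 1.01 against liver and from 0.35 to 1.33 against gastrocnemius. Of the 15 adipocyte genes, 14 were higher and 0 lower than in liver, and 14 were higher than in gastrocnemius, under both scalings and without library 17. The gene lower than in gastrocnemius was Slc2a4, the insulin-responsive glucose transporter of fat and muscle. The resident cells of the depot followed the same pattern. Macrophage genes were higher than in liver for 14 of 16 tested (median log2 difference 2.32) and higher than in gastrocnemius for 16 of 16 (3.11). All 7 MHC class II genes, which present antigen, were higher than in both tissues. Of 20 genes of collagen and fibroblasts 18 were higher than in liver and 18 higher than in gastrocnemius, and of 12 endothelial genes 10 were higher than in each.

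The most abundant transcripts of eWAT came from mitochondrial DNA (mtDNA), from the lipid and secretory programs of adipocytes, and from a locus that overlaps ribosomal RNA. The mitochondrial gene mt-Nd4, a subunit of respiratory complex I, took 5.72% ± 2.07 of counts (SD, n = 6), and the large mitochondrial ribosomal RNA mt-Rnr2 took 5.07% ± 1.23. Among nuclear genes of known function the leaders were Car3 at 1.87% ± 0.414, Cfd at 1.76% ± 0.466, Scd1 at 1.56% ± 0.342, Fabp4 at 1.26% ± 0.382, Apoe at 1.20% ± 0.164 and Lpl at 0.955% ± 0.323. Car3 is a carbonic anhydrase abundant in fat, Cfd is the secreted protease adipsin, Scd1 puts the double bond into newly made fatty acids, and Lpl is the lipase that releases fatty acids from lipoproteins. Malat1, a nuclear long noncoding RNA, took 1.26% ± 0.307, Sparc, a matrix protein secreted by adipocytes and fibroblasts, 0.775% ± 0.0734, and the beta globin Hbb-bs 0.725% ± 0.272.

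**Figure D1:**
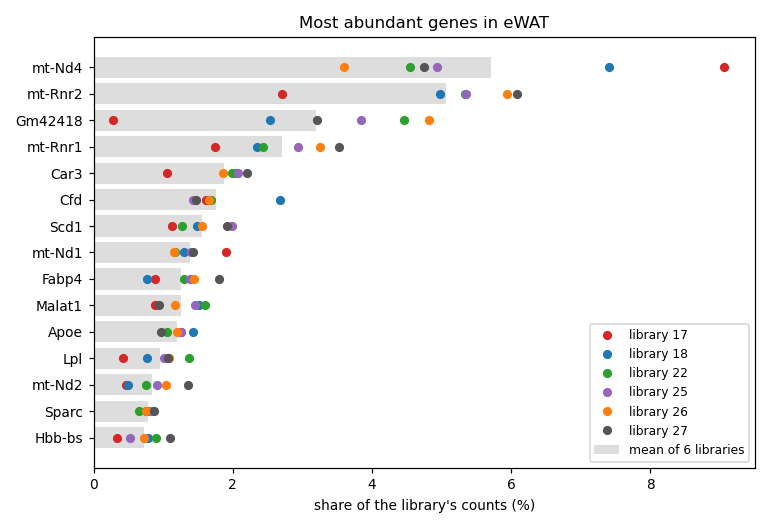
Share of all counts, in percent on the horizontal axis, taken by each of the 15 genes with the largest mean share in eWAT; each point is 1 library and the bar is the mean of the 6. Library 17 holds the highest share of mt-Nd4 at 9.06% and the lowest of Gm42418 at 0.285%.

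These counts were spread over many genes. It took 148 to 378 genes to reach 50% of the counts of an eWAT library, with library 17 at 378, compared with 21 to 41 genes in liver and 8 to 14 in gastrocnemius. Several of the abundant genes varied among the mice. Lpl was at 3875, 8065, 13376, 10348, 10792 and 11196 CPM, lowest in library 17. Car3 was at 9740 CPM in library 17 and 18557 to 23002 CPM in the others. Cfd was at 27976 CPM in library 18 and 14599 to 16636 CPM in the others.

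The third most abundant entry was Gm42418, a predicted gene on the plus strand at chr17:39846958-39848788 of GRCm38, which overlaps Rn18s-rs5, a pseudogene copy of the small cytoplasmic ribosomal RNA at 39846354 to 39848202 in RefSeq. It was at 2623, 26482, 43561, 39299, 48211 and 33532 CPM. Library 17 held the lowest level, and its share of counts was 0.285% against 2.54% to 4.83% elsewhere. The strand setting of the counting is not given in the sources used here, and a gene on the opposite strand spans the same interval, so reads of the overlapping genes cannot be told apart.

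Mitochondrial DNA codes for subunits of the respiratory chain, for 2 ribosomal RNAs and for transfer RNAs, and its transcripts made up 16.9%, 17.4%, 15.1%, 16.6%, 15.9% and 18.2% of the counts of the 6 libraries. The mean was 16.7% ± 1.09 (SD, n = 6), the 95% Wilson interval of a single library was at most 0.0642 percentage points to either side for counting error alone, and library 17 lay inside the range of the others. Liver stood at 24.2% ± 2.23 and gastrocnemius at 37.3% ± 5.38 (SD, n = 6 each), and neither overlapped eWAT. The differences of -7.55 and -20.6 percentage points each gave p = 0.00216 in a two-sided exact permutation test, the smallest that 6 against 6 libraries allow. With the mitochondrial messenger RNAs alone the shares were 8.89% ± 2.07 in eWAT and 12.2% ± 1.20 in liver (exact permutation p = 0.013). Gastrocnemius stood at 25.8% ± 4.43 (exact permutation p = 0.00216). By this measure library 17, at 12.4%, lay inside the liver range of 10.7% to 13.9%.

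**Figure D2:**
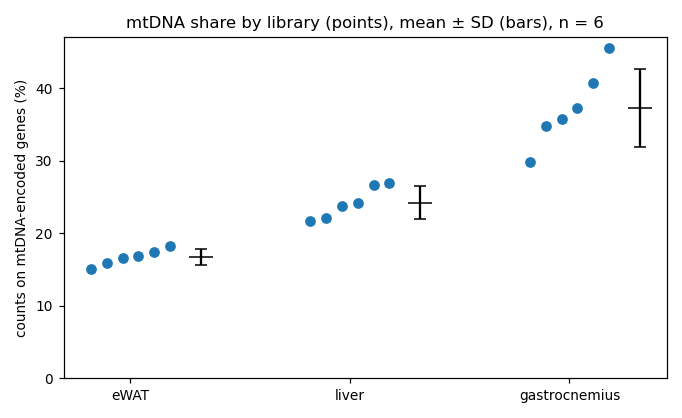
Share of counts on genes of mitochondrial DNA, in percent on the vertical axis, in the 3 offspring tissues; each point is 1 library, ordered by value, and the bar beside each tissue is the mean ± SD (n = 6). The eWAT libraries lie between 15.1% and 18.2%, below every liver and gastrocnemius library.

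Within this total the parts moved in opposite directions. Messenger RNAs made up 12.4% of counts in library 17 and 6.71% in library 26, whereas ribosomal RNAs made up 4.46% in library 17 and 9.61% in library 27. mt-Nd4 was at 83484, 77192, 44445, 50588, 35963 and 49530 CPM, high in libraries 17 and 18. mt-Nd2, another complex I subunit, ran the other way, at 4319, 5089, 7330, 9386, 10436 and 14103 CPM. mt-Rnr2 was at 25007 CPM in library 17 and 51914 to 63403 CPM in the others. By contrast mt-Co1, the catalytic subunit of complex IV, ranged from 593 to 778 CPM and mt-Cytb, of complex III, from 5961 to 8510 CPM.

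Some mitochondrial genes had no counts. mt-Nd3, mt-Co2, mt-Co3, mt-Atp6 and mt-Atp8 were listed at 0 in all 6 libraries, and mt-Nd4l had 1 count in all, although every respiring cell transcribes them. In the reference genome a nuclear copy annotated as a gene matched 5 of these 6 over at least 90% of their length at 99% identity or more, and mt-Atp8 had no such copy. None of the other 7 protein-coding genes of mtDNA, nor the ribosomal RNAs, had one over that length. Shorter copies, and copies not annotated as genes, were not sought. Whether reads of those other genes were lost to such copies was not tested. The copies Gm28661, Gm28437, Gm10925, Gm28438 and Gm10222 held 7, 22, 20, 3 and 0 counts over the 6 libraries. How reads that map to several places were handled is not given in the sources used here. The mtDNA share therefore leaves out whatever the genes at or near 0 counts would add. Levels of different mtDNA genes, such as mt-Co1 and mt-Nd4, may not compare for the same reason.

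In relation to other tissues, 6 of 7 mitochondrial messenger RNAs tested were lower than in liver (0 higher, median log2 difference -1.64). Against gastrocnemius 7 of 7 were lower (-2.75). Of all genes tested, 19.0% were lower than in liver and 18.2% lower than in gastrocnemius. With library totals the calls fell to 2 and 6, beside 1057 and 860 of all 10851 genes. The nuclear genes of oxidative phosphorylation were lower than in gastrocnemius for 56 of 64 tested and higher for 2, with a median of -1.87. With library totals 28 were lower and 2 higher, with a median of -0.90. Against liver 25 of 64 were lower and 0 higher, with a median of -0.87. With library totals 1 was lower and 2 were higher, with a median of 0.07, so both the calls and the direction depend on the scaling. Among the 6 mice the mean of this program varied little. The mean log2 CPM of its genes had an SD of 0.15 and 0.17 without library 17. The median SD of its members was 0.28, beside 0.37 for all genes. Of 61 members 3 passed 4-fold with and without library 17, beside 10.7% and 3.84% of all genes. Sdha, the catalytic subunit of complex II, ranged from 314 to 361 CPM.

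Over 10562 genes with a mean of at least 5 CPM, 1131 (10.7%) differed by 4-fold or more between the highest and lowest of the 6 libraries, and the median SD of log2 CPM was 0.37. Library 17 was the highest of the 6 for 691 of these 1131 genes, and each other library for 86 to 91. Library 18, the shallowest, was the lowest for 337 of the 1131. Over all 10562 genes library 17 was highest for 2886 and lowest for 2403. Each other library was highest for 1137 to 2022 and lowest for 1166 to 2426. Without library 17, 391 of 10171 genes (3.84%) reached 4-fold and the median SD was 0.31, close to liver, where 5.69% of genes reached 4-fold with a median SD of 0.35. Gastrocnemius stood at 11.2% and 0.41, with its shallowest library at 369772 counts, below every eWAT library. The eWAT range without library 17 covers fewer libraries than the ranges of liver and gastrocnemius. Over the 6 eWAT libraries the share was larger among low genes, with 23.1% of genes at 5 to 10 CPM past 4-fold compared with 4.27% at 50 to 200 CPM.

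Over all genes, the log2 CPM of library 17 correlated with the others at Pearson's r of 0.790 to 0.809, and the others among themselves at 0.921 to 0.965, a description over genes that are not independent. The first principal component held 54.5% of the variance and set library 17 at 89.9 against -22.0 to -10.4. The second held 18.9% and set library 18 at 51.7 against -18.6 to -1.79, and the third, with 11.5%, ran from library 25 at -26.4 to library 22 at 36.3. The largest positive weights of the first component belonged to epithelial genes described below, and the largest negative ones to Myh4, Tnnc2, Tnnt3, Tnni2 and Gm42418. Without library 17 the first component held 42.9% of the variance and set library 18 at 49.5 against -19.6 to -2.79. At the quiet end stood Mff, which recruits the mitochondrial fission machinery, at 40.5 to 44.2 CPM, together with Ppp2r3a, Nup85, Rad51d and Afg3l1, each with an SD of 0.05 on the log2 scale.

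**Figure D3:**
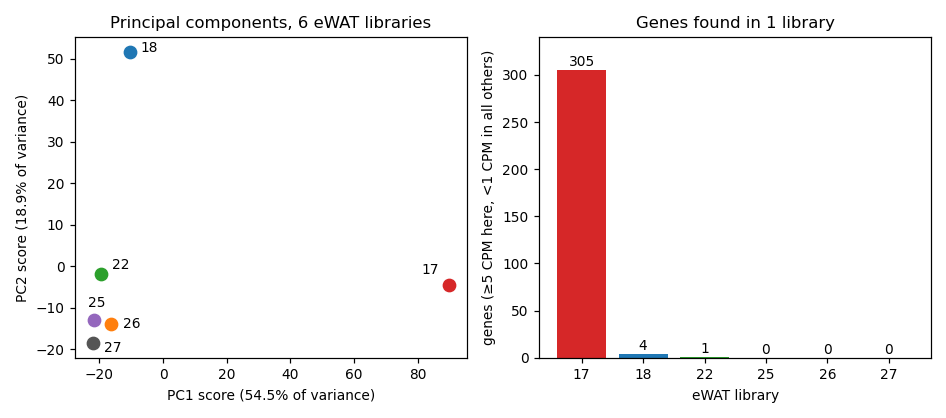
Left, scores of the 6 eWAT libraries on the first and second principal components of log2 CPM, with the share of variance on each axis; right, the number of genes at 5 CPM or more in 1 eWAT library and under 1 CPM in each of the others. Library 17 lies alone on the first component and library 18 on the second, and the count is 305 in library 17 and 0 to 4 in the others.

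The 305 genes found in library 17 alone summed to 7839 CPM, or 0.784% of that library. The same rule gave 4, 1, 0, 0 and 0 genes in the other eWAT libraries, 0 or 1 in liver libraries and 0 to 29 in gastrocnemius libraries. The 29 were in the shallowest gastrocnemius library, with 369772 counts. Of the 305, 99 had 0 counts in every other eWAT library, 205 were under 1 CPM in every liver library and 230 in every gastrocnemius library. The threshold sets which genes count, and 180 genes remained at 10 CPM or more.

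The largest spreads of the whole transcriptome were epithelial genes of this library. Cldn2, the claudin of leaky absorptive epithelia, was at 847 CPM in library 17 and 0 to 2.39 CPM in the others. Epcam, the epithelial cell adhesion molecule, was at 203 CPM against 0 to 0.560 CPM. Dsp, the desmoplakin of desmosomes, was at 230 CPM against 0.257 to 1.56 CPM, and Prom1, a protein of apical membrane protrusions, was at 719 CPM against 0.310 to 3.89 CPM. Mmp7, a matrix protease of glandular epithelium, was at 385 CPM against 0 to 0.266 CPM. The estrogen-responsive gene Greb1 was at 654 CPM against 0 to 5.04 CPM, and Ptgds, the prostaglandin D synthase, at 691 CPM against 1.68 to 15.6 CPM. In each of them library 17 lay far above the other libraries. Those were at or near the floor, apart from Greb1 at up to 5.04 CPM and Ptgds at up to 15.6 CPM. The other largest spreads of this kind were Dcdc2a, Calml3, Cuzd1, ccdc198, Ccdc153, Kcnk1, Mia, Cdhr5, Gstm7, Sntn and Iyd, between 89.5 CPM for Sntn and 565 CPM for Dcdc2a in library 17.

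Genes of motile cilia were high in the same library. Multiciliated cells beat to move fluid along an epithelium, and their cilia need dynein motors, radial spokes and tektins made by a dedicated gene program under the transcription factor Foxj1 and the RFX family. The cilia list, the epithelial and duct lists further below, and the genes named with them were chosen after the values were seen. Their levels are a description with no test. Of 46 genes of motile cilia 44 were found in the table and had a count. They summed to 1768 CPM in library 17 and 84.9 to 233 CPM in the others. Library 17 was highest for 42 of the 44, and 5-fold or more above the next library for 36. Among all 10562 genes with a mean of at least 5 CPM, it was highest for 2886. Foxj1 itself was at 68.0 CPM and at 0 counts in the other 5 libraries.

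Below are 60-base windows upstream of the start sites of 5 genes of cilia (GRCm38.p6, RefSeq start sites, each on its gene's own strand), shown because RFX factors bind a site called the X-box. The capitals mark its half-site GTTGCC, or GGCAAC where it lies on the other strand.
Ccdc153, chr9:44240498-44240557, plus strand: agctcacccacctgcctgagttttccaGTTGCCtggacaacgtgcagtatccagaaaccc
Sntn, chr14:13670783-13670842, plus strand: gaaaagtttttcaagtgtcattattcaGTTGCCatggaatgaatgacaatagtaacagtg
Lrrc23, chr6:124779734-124779793, minus strand: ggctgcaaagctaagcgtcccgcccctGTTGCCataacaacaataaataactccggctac
Cfap44, chr16:44394739-44394798, plus strand: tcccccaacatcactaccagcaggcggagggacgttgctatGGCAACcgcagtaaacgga
Hydin, chr8:110266917-110266976, plus strand: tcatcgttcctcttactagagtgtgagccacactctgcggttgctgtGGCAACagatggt

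In library 17 these 5 genes were at 189, 89.5, 74.5, 58.8 and 58.5 CPM, and in the other libraries at no more than 2.66 CPM. They were picked as the highest in library 17 among the 16 cilia genes with a half-site before the start site. Ccno, Tekt2, Mcidas and Spag6 hold the half-site too, and were at 0 to 3.15 CPM in library 17. In the 250 bases before the start site, the half-site on either strand was present in 16 of the 40 cilia genes with a promoter sequence (40%), in 38 of 235 promoters of the genes found in library 17 alone (16.2%), and in 2833 of all 27025 promoters (10.5%). The full X-box, GTTNCC and GGNAAC with any 2 bases between them, was in 1 of the 40 cilia promoters, in 0 of the 235 and in 0.363% of all promoters. The cilia genes were picked after their levels were seen, and a match is a run of letters and not a measured binding site.

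A list of 40 epithelial genes summed to 2981 CPM in library 17 and 213 to 335 CPM in the others, with library 17 highest for 33. Among all 10562 genes with a mean of at least 5 CPM, library 17 was highest for 2886. A list of 32 genes of the genital and kidney ducts summed to 1852 CPM against 680 to 818 CPM. Of its 30 members with a count 22 were highest in library 17, and 11 of them were 5-fold or more above the next library. Among these Pax8, a transcription factor of kidney and duct epithelium, was at 74.5 CPM and at 0 counts in the other 5. Lrp2, the endocytic receptor megalin, was at 128 CPM against 1.86 to 11.7 CPM, and Esr1, the estrogen receptor, at 103 CPM against 15.7 to 30.2 CPM. Slc26a3, a chloride and bicarbonate exchanger, was at 75.0 CPM. Other members of the list were lower there, within the range of the other libraries, or absent. The carbonic anhydrase Car4 was at 24.1 CPM against 43.7 to 86.4 CPM, the transcription factor Gata3 at 4.20 CPM against 2.06 to 12.9 CPM, and Cubn, the partner of megalin, had 0 counts in every library. Secreted and other marker proteins of the epididymis were low on the list fixed for them. Of its 24 genes 13 had a count, and their sum was 13.9, 13.2, 0.560, 0.619, 2.92 and 0.257 CPM, led by Adam7 at 9.97 CPM in library 17 and by Crisp1 in library 18. The defining markers Lcn5 and Lcn8 were at 0 counts in every library, and Gpx5 reached 1.60 CPM. Other genes of this kind, seen among those found in library 17 alone, were higher there. The defensins Defb36 and Defb29 were at 47.5 and 11.02 CPM and at 0 counts in the other 5 libraries, and Eddm3b, an epididymal secretory protein, was at 10.8 CPM against at most 0.560 CPM.

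Germ cell transcripts were low in all 6 and highest in the same library. The 13 testis germ cell genes summed to 93.2 CPM in library 17 and 7.43 to 15.9 CPM in the others, and library 17 was highest for 10 of the 13. It was highest for 2886 of all 10562 genes with a mean of at least 5 CPM. Prm1 and Prm2, the protamines that pack sperm chromatin, were at 19.4 and 21.5 CPM against at most 1.68 and 1.24 CPM. Ldhc, the lactate dehydrogenase of sperm, was at 10.2 CPM. Most of the rest of the sum outside library 17 was Sycp3, a meiotic chromosome protein, which was lowest in library 17 at 2.10 CPM. Leydig cell genes summed to 7.97 to 11.8 CPM, mostly Star, genes of seminal vesicle and vas deferens to 0.257 to 3.89 CPM, and pancreas genes to at most 0.525 CPM. Whether ducts or testis in the tissue gave the transcripts particular to library 17 was not tested.

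Adipocyte and endothelial genes were low in library 17 beside its epithelial genes. The 15 adipocyte genes summed to 42887 CPM in library 17 and 65379 to 76237 CPM in the others, and it was lowest for 9 of them. Library 17 was lowest for 2403 of all 10562 genes with a mean of at least 5 CPM. Acvr1c, a receptor of the activin family in adipocytes, was at 99.7 CPM against 298 to 377 CPM, and Lipe, the hormone-sensitive lipase, at 511 CPM against 1076 to 1658 CPM. The 12 endothelial genes summed to 1234 CPM against 1702 to 1891 CPM. Globins and the other erythroid genes summed to 3821 CPM against 6784 to 14671 CPM, with all 5 lowest in library 17. The MHC class II genes ran the other way, at 2426 CPM against 1108 to 1561 CPM, and H2-DMa, which helps to load antigen, was at 236 CPM against 63.5 to 92.6 CPM. Collagen and fibroblast genes summed to 15209 CPM against 16199 to 17126 CPM. Lcn2, an iron-binding protein of the acute phase that epithelia also make, was at 175 CPM against 1.80 to 5.60 CPM. The part of the epithelial genes in these differences was not tested.

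Of 14 clock genes with a mean of at least 5 CPM 2 passed 4-fold, Bhlhe41 and Dbp, a share near the 10.7% of all genes. Without library 17 this was 0 of 13, beside 3.84% of all genes. The values that follow set library 17 against the others. Bhlhe41, a repressor of the clock, was at 65.3 CPM against 8.74 to 16.8 CPM, and Nr1d2, a nuclear receptor of the same loop, at 84.2 CPM against 38.9 to 42.0 CPM. Arntl, the activator, was lowest there at 18.1 CPM against 23.5 to 40.7 CPM. The SD of the list's mean log2 CPM was 0.22 with library 17 and 0.08 without it. The times of day of tissue collection are not given in the sources used here.

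By mean log2 CPM over the 6 libraries, skeletal muscle genes had the largest spread of any list fixed for this tissue. The SD was 1.88 on the log2 scale and 1.72 without library 17. Without library 25 it was 1.417, and hepatocyte genes were ahead at 1.455. By summed CPM the epididymal list, near the floor, ranged 54.1-fold, and the muscle list 25.7-fold. All 11 muscle members with a mean of at least 5 CPM reached 4-fold, beside 10.7% of all genes. A member can reach that mean only through library 25, and its 4-fold range is then fixed by the filter. Mylpf was at 61.3 CPM there and 0.532 to 12.9 CPM elsewhere. The sum of the muscle list, with the 2 members below that mean, was 83.2, 152, 618, 2136, 274 and 619 CPM. Library 25 was highest for all 13, beside 1452 of all 10562 genes. Myh4, the fastest muscle myosin, was at 1.31, 3.11, 88.5, 419, 6.91 and 75.6 CPM. Tnnc2, the calcium sensor of fast fibres, was at 0.525, 2.34, 99.1, 267, 14.4 and 59.1 CPM, and the giant spring protein Ttn reached 689 CPM in library 25. The sum in library 25 was 1.79% of the median level in gastrocnemius, and the members there lay between 0.708% and 3.00% of it. In the other eWAT libraries it was 0.0697% to 0.519%. Each tissue was scaled by itself, so these percentages hold to the extent that the CPM scales agree. Liver libraries had a median sum of 33.5 CPM.

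Liver genes varied in the same manner. The 10 hepatocyte genes summed to 476, 105, 247, 336, 1194 and 628 CPM, and library 26 was highest for all 10. Over all 10562 genes it was highest for 1137. Alb, the serum albumin, was at 100, 24.9, 69.4, 87.0, 315 and 197 CPM. Ahsg, the plasma protein fetuin-A, was at 97.1, 4.67, 22.96, 39.6, 241 and 106 CPM. The sum in library 26 was 1.41% of the median level in liver and 0.124% to 0.743% in the others. Cyp2e1, a cytochrome of drug and alcohol metabolism, behaved otherwise, at 45.1 to 144 CPM, or 32.9% to 105% of its liver level in the 6 libraries, while the median member in library 26 was at 1.45%. Of the 8 members with a mean of at least 5 CPM 7 reached 4-fold with and without library 17, beside 10.7% and 3.84% of all genes. In gastrocnemius the same list had a median sum of 3.57 CPM. Whether muscle and liver RNA reached these libraries from other tissue or from other samples was not tested.

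**Figure D4:**
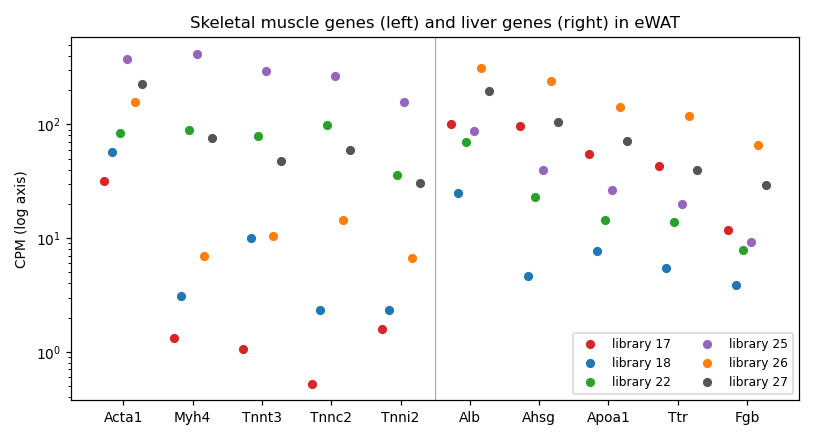
Level of 5 skeletal muscle genes (left) and 5 liver genes (right) in CPM on a log10 vertical axis, with 1 point per eWAT library. Each muscle gene is highest in library 25, with Myh4 at 419 CPM, and each liver gene is highest in library 26, with Alb at 315 CPM.

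Erythroid genes, which report blood left in the tissue, had 3 of 5 members past 4-fold (10.7% of all genes) and 0 of 5 without library 17 (3.84% of all genes). Hbb-bs was at 3068, 8124, 8799, 5313, 7172 and 11443 CPM, lowest in library 17 and highest in library 27.

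**Figure D5:**
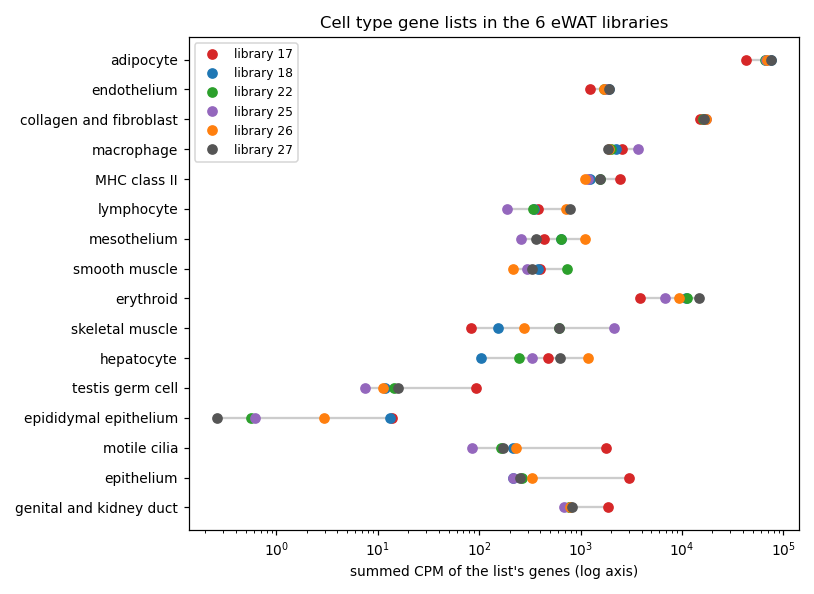
Summed CPM of the genes of each cell type list, on a log10 horizontal axis, with 1 point per eWAT library and a line over their range. Adipocyte, endothelial and collagen genes lie close together, muscle genes run from 83.2 to 2136 CPM, and the cilia, epithelium, duct and testis lists have library 17 at the high end.

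Within the resident cells, the mean log2 CPM of the adipocyte program was even across libraries other than 17, while its single genes varied. The SD of that mean was 0.34 and 0.18 without library 17. The median SD of its members was 0.49 over the 6 libraries, beside 0.37 for all genes. Of the 15 adipocyte genes 1, Lep, reached 4-fold, beside 10.7% of all genes. Retn, the hormone resistin, ranged from 1250 to 1781 CPM and Cidec, which enlarges lipid droplets, from 790 to 1997 CPM. Lipid synthesis varied little by its mean log2 CPM, with an SD of 0.13 and 0.15 without library 17. However, the median SD of its members was 0.46. The log2 of its summed CPM, which its most abundant gene Scd1 leads, had an SD of 0.36. Fasn, the fatty acid synthase, was at 336 to 627 CPM, and Scd1 at 10374, 15413, 12483, 20328, 15530 and 20012 CPM. The 1 member past 4-fold was Scd2, another desaturase, at 49.3 CPM in library 17 and 3.11 to 8.96 CPM in the others. Cholesterol synthesis had 1 of 8 members past 4-fold, Sqle, at 3.89 to 18.4 CPM, a share near that of all genes, and 0 of 8 without library 17.

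Genes that mark expanding adipocytes varied most among the fat-cell lists, with an SD of 0.67 and 4 of 5 members past 4-fold beside 10.7% of all genes, and 3 of 5 without library 17 beside 3.84%. Lep, which encodes leptin and rises with fat mass, was at 379, 117, 180, 304, 153 and 508 CPM. Sfrp5, a secreted Wnt inhibitor, was at 26.2, 11.7, 102, 35.9, 36.4 and 103 CPM. Mest, linked to adipocyte enlargement, was at 94.7, 14.8, 65.0, 96.3, 104 and 134 CPM, and Npr3, the clearance receptor for natriuretic peptides, at 238, 209, 318, 325, 301 and 632 CPM. Library 27 was highest for 4 of the 5 genes and library 18 lowest for 4. Over all 10562 genes library 27 was highest for 1437 and library 18 lowest for 2426. Bmp3, the fifth, was lowest in library 17, at 7.87 CPM, and highest in library 26, at 42.8 CPM.

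Responses to fasting and glucocorticoids split by gene. Zbtb16, induced by glucocorticoids, was at 50.6, 279, 91.3, 119, 133 and 140 CPM. The metallothioneins Mt1 and Mt2, which bind zinc and also respond to stress hormones, were at 3256, 1623, 724, 2571, 1937 and 1175 CPM and at 1358, 465, 313, 1156, 719 and 587 CPM, both lowest in library 22 and highest in library 17. Pdk4, which spares glucose in fasting, was at 7.87, 19.5, 6.72, 38.1, 27.9 and 11.8 CPM. Of 11 members 4 passed 4-fold, these 4 genes, beside 10.7% of all genes, and without library 17 this was 1 of 11 beside 3.84%. Of 13 immediate early genes, which respond within minutes to handling, 1 passed 4-fold, and of 8 heat shock genes 0 did.

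Among immune cells, macrophage genes were highest in library 25, where the list summed to 3676 CPM against 1861 to 2562 CPM and 10 of 18 members peaked. Over all 10562 genes library 25 was highest for 1452. Gpnmb, a glycoprotein of lipid-laden macrophages, was at 334, 156, 57.1, 594, 34.6 and 93.6 CPM. Lgals3, galectin-3, was at 210, 77.8, 93.5, 467, 113 and 148 CPM, and Cd68, a lysosomal protein, at 85.0, 56.8, 32.5, 128, 52.6 and 43.7 CPM. Other macrophage genes varied little, with the growth factor receptor Csf1r at 90.4 to 127 CPM and the mannose receptor Mrc1 at 58.3 to 87.4 CPM. Of 17 macrophage genes 4 passed 4-fold with and without library 17, beside 10.7% and 3.84% of all genes. Trem2, a lipid receptor of the same cells, had 0 counts in every library.

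Of 3 lymphocyte genes with a mean of at least 5 CPM, 2 passed 4-fold, beside 10.7% of all genes. Both were antibody genes, Igkc and Jchain. Antibody transcripts, which come from B cells and plasma cells, were lowest in library 25. Igkc, the kappa light chain, was at 180, 202, 167, 81.5, 383 and 435 CPM. Jchain, which joins antibody units, was at 27.8, 26.5, 35.3, 10.5, 47.1 and 65.0 CPM. T cell genes were too low to compare, with Cd3e at no more than 4.52 CPM. Tpsb2, a mast cell tryptase, was at 40.4, 50.6, 34.2, 21.7, 18.9 and 5.14 CPM, and S100a8, a neutrophil calcium-binding protein, reached 51.9 CPM in library 27 and 3.89 CPM in library 18. Interferon response genes were lowest in library 25 for 8 of 12, beside 1494 of all 10562 genes. However, Ifi27l2a, the most abundant of the list, was at 617, 1918, 780, 532, 724 and 368 CPM. Of 8 members 1 passed 4-fold, a share near the 10.7% of all genes.

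Mesothelium and smooth muscle, the surface of the pad and the walls of its vessels, varied as well, and endothelium and fibroblasts less. Mesothelial genes had 8 of 10 members past 4-fold (10.7% of all genes) and 6 of 10 without library 17 (3.84% of all genes), and the list was highest in library 26 at 1108 CPM against 257 to 642 CPM. Upk3b, a uroplakin of mesothelium, was at 12.1, 97.3, 86.2, 28.2, 113 and 35.0 CPM, and Slpi, a secreted protease inhibitor, at 149, 195, 204, 108, 543 and 175 CPM. Upk3b and Lrrn4 were both high in libraries 18, 22 and 26 and low in 17, 25 and 27. Keratins of the list went another way, since Krt18 and Krt19, which other epithelia share, were highest in library 17, at 101 and 72.7 CPM. Smooth muscle genes peaked in library 22 for 6 of 8, beside 1628 of all 10562 genes. Myh11, the smooth muscle myosin, was at 108, 94.9, 152, 27.9, 14.9 and 32.1 CPM. Of the 12 endothelial genes 0 passed 4-fold. Of 20 collagen and fibroblast genes 2 did, a share near the 10.7% of all genes, Pi16, which marks fibroblast progenitors, and Mfap5, a microfibril protein at 64.5 CPM in library 27 and 276 CPM in library 18. Pi16 was at 14.4, 48.2, 34.2, 0.929, 9.57 and 8.48 CPM.

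By mean log2 CPM library 18 was the lowest of the 6 for lipid synthesis, cholesterol synthesis, thermogenic, adipose expansion and hepatocyte genes. It was also lowest for oxidative phosphorylation, heat shock, Y-linked and immediate early genes. For the last, library 22 was nearly equal, at 4.774 against 4.770. By summed CPM the lowest was library 17 for lipid synthesis and immediate early genes. It was library 22 for oxidative phosphorylation and heat shock genes, and library 27 for thermogenic genes. Single genes stood out in library 18 as well. Besides Cfd, Zbtb16 and Ifi27l2a, the transcription factor Klf4 was highest there, at 398 CPM against 105 to 248 CPM. Atp5j, a subunit of the ATP synthase, had 0 counts there and 14.6 to 33.5 CPM elsewhere, and the oxytocin receptor Oxtr had 0 counts and 13.4 to 60.4 CPM elsewhere, above the 2.33 CPM that a count of 0 allows in library 18. The genes of the Y chromosome were lowest there too. Ddx3y, an RNA helicase, was at 93.4, 59.2, 151, 140, 148 and 152 CPM, and Eif2s3y, a translation factor, at 24.9, 5.45, 21.3, 24.8, 21.5 and 31.1 CPM. All 6 libraries carried Y-linked transcripts and had Xist at no more than 1.55 CPM. Library 18 was also the shallowest, and the part of depth in these values was not tested.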

How the data were processed

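Epididymal fat, liver and gastrocnemius of male offspring were profiled by QuantSeq 3′ mRNA sequencing of polyadenylated RNA. The authors trimmed reads with BBDuk, aligned them to GRCm38 with STAR, counted them per gene with featureCounts and deposited the raw counts; versions, strand setting and the handling of multiply mapped reads are not given in the sources used here. The eWAT table holds 54838 genes, 26720 with a count in eWAT, and 0 of the columns of per-sample values in the tables used went unmapped to a tissue. Columns name libraries and not HFDt or HFDi, so each tissue formed 1 group.

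Spread was described on log2 CPM (TMM, prior count 2) over genes with a mean of at least 5 CPM. Tissues were compared with edgeR 4.0.16 (quasi-likelihood test, filterByExpr with a minimum count of 10, R 4.3.3), with DESeq2 1.42.0 as an alternative, and called at an adjusted p of 0.05 and a log2 fold change of 1. The scripts were tested on simulated counts. mtDNA shares were compared by two-sided exact permutation tests. Nothing states that samples are separate litters, so p-values measure only the spread between these samples. Nuclear copies of mtDNA genes were sought among annotated transcripts with BLAST 2.17.0. Intervals and floors cover counting error only.

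The members and the 31 gene lists were chosen with earlier results of these data known; 3 further lists (cilia, epithelium, ducts) were chosen after values were seen. Named genes were the 15 most abundant, the mtDNA genes, Adipoq, Plin1 and Fabp4, the most abundant and the most variable member of each list, the 20 most and 5 least variable genes and the extremes of the first principal component. Other genes were named after their values were seen.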

Additional observations from a re-analysis of the deposited data

Results flagged for a closer look

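Of 60 values per library that were looked at (lists, abundant genes and the 3 lists added after seeing the data), 10 had 1 library far from the other 5, with the gap to its neighbour divided by the whole range above Dixon's 95% critical value for 6 samples. The 3 added lists were picked because library 17 was high in them, so they were bound to be among the 10. Of the other 57 values 7 had 1 library apart, a share near the 13.5% found over all genes by the same measure. It was library 17 in 4, library 18 in 2 and library 25 in 1. The values are not independent, since some lists, such as the testis germ cell genes, entered both as mean log2 CPM and as summed CPM. No rate expected by chance was therefore set against them.

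In library 17 the ratio of gap to range was 0.889 for the mean log2 CPM and 0.901 for the summed CPM of the testis germ cell genes, 0.912 for motile cilia, 0.956 for epithelium and 0.882 for genital and kidney ducts, all highest there. mt-Rnr2 (0.701) and Car3 (0.665) were lowest there.

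In library 18 the ratio was 0.848 for Cfd, highest there, and 0.650 for the mean log2 CPM of the Y-linked genes, lowest there. In library 25 it was 0.739 for the summed CPM of skeletal muscle genes.

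Over all 10562 genes, 1431 (13.5%) had 1 library apart by the same measure, and in 838 of them library 17 was the high one, compared with 168 for library 18 and 30 to 71 for the others. Some genes can reach the mean of 5 CPM only through their high library, so these counts partly follow from the filter.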

How the results depend on the processing

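The share of mtDNA counts was 16.7% and became 8.89% when only messenger RNAs were taken. The number of genes with a 4-fold range was 1131 at a mean of 5 CPM, 3251 at 1 CPM and 314 at 20 CPM, and 391 to 1093 with 1 library left out, the 391 being without library 17. Genes called against liver rose from 4784 to 7533 with no filter on low counts, since more genes are then tested. The 305 genes found in library 17 alone became 180 at 10 CPM and 170 with the others under 0.5 CPM. Leaving out 1 eWAT library gave 4862 to 4927 calls against liver and 5642 to 5743 against gastrocnemius. No paired analysis was possible because the tables share no library numbers between tissues and name no group. With summed CPM in place of mean log2 CPM the spread of 9 of 30 lists moved; without library 17 it moved for 7 of 31, without 18 for 3 and without 25 for 2. The pancreas list has libraries at 0 and gave no log2 of a sum. Depth limits genes under 2.33 CPM in library 18.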
